A study of Mus musculus with 6 samples.

Results

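Regions with peaks only in dKO are stretches of mouse liver chromatin that were called open in all 3 libraries from mice given Cre recombinase and in none of the 3 control libraries. Of 109853 merged regions, 1723 met that rule, or 1.57% of all. Peaks of the 6 lists that shared at least 1 bp on chromosomes 1 to 19 and X were merged, and a region's value in a library was the highest normalized tag count of its peaks there. The dKO libraries, so named in the labels, came from male Ncor1 F/F mice that carried another floxed gene as well and received an adeno-associated virus (AAV) with Cre, so the groups differ by both genes and not by Ncor1 alone. The control libraries came from males of that same floxed genotype given AAV-eGFP, so both groups carried the floxed alleles and a virus. Livers were taken 5 days after the virus at zeitgeber time 10, and HNF4a+ nuclei were sorted by FACS before Omni-ATAC, an assay that marks open DNA by where a transposase can insert. The sources used here give no mouse ages, no virus dose and no promoter for Cre, nor do they say whether each library was a separate animal, so p-values measure only the spread between these libraries, which may be technical.

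NCOR1 is a corepressor. It is brought to DNA by nuclear receptors that lack an activating ligand, carries a complex with the histone deacetylase HDAC3, and keeps target genes of receptors such as PPARα, LXR, REV-ERB and the thyroid hormone receptor low. In the liver the complex is known for its control of fatty acid oxidation, lipid synthesis and the clock. Peaks of open chromatin mark promoters and enhancers.

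The peak lists bore on what the rule can see. The lowest fold of a peak over its local surroundings was 4 in every list, so a library can lack a peak at an open site whose surroundings are open too. No fold change against control is therefore given for these regions, and presence in dKO and absence in control are descriptions, not findings. The dKO lists held 84614, 81667 and 71473 peaks, and the control lists 83371, 72417 and 68316. In these sorted nuclei more nuclei with an open site and more openness per nucleus cannot be told apart. Linked regions were found for all 8 hepatocyte and all 8 endothelial marker genes, 7 of 8 stellate, 6 of 8 neutrophil, 5 of 8 macrophage, 4 of 8 cholangiocyte and 2 of 8 lymphocyte markers, so the lists do not set hepatocytes apart by presence alone. Cd68, Vsig4 and Timd4 of the macrophages had no region, while Cd3g, Cd79a, Ms4a1 and Nkg7 of the lymphocytes and Krt19 and Krt7 of the bile ducts had none either. Hepatocyte marker regions themselves differed between the groups: their summed normalized tag counts ranged from 1074 to 1212 in dKO and from 1213 to 1957 in control, and 16 of 29 shared ones were lower in dKO by limma (median log2 fold change -0.56). None of the 73 regions linked to these markers had peaks only in dKO, and the part of this difference in the results below was not tested.

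Start sites give the sequences that can be shown, since only promoter windows were given for these regions (RefSeq, build GRCm38.p6, from 250 bases before to 50 after a start). Of the 1723 regions 52 (3.02%) overlapped such a window, against 15.7% of shared regions, and 40 of the 52 had a control peak within 1 kb. In 8 cases the region lay over the promoter window of a protein-coding gene with no control peak within 5 kb, a group chosen after the values were seen. Several of these genes are best known outside hepatocytes. Tinag encodes a basement membrane protein of kidney tubules, and its start region had 6.24, 4.23 and 4.98 in dKO with no control peak within 317710 bp. Umod encodes uromodulin, a protein of the kidney tubule, and the region upstream of it had 5.25, 3.61 and 5.16. Slc7a11, the cystine importer that feeds glutathione synthesis, had 12.8, 5.12 and 4.68, highest in dKO 1, with no control peak within 61616 bp. Scel, which encodes sciellin of the cornified envelope, had 7.17, 3.92 and 4.62, Ttc22 12.6, 7.37 and 8.20, Kcne3, a potassium channel subunit gene, 4.2, 4.18 and 4.86, Arfgef3 6.47, 4.13 and 4.50, and Bend6 5.42, 4.60 and 7.41. All 8 were weak in level, with means from 4.41 to 9.39, and their lowest local folds ran from 7.66 to 16.9.

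The 250 bases upstream of the start are shown 5′ to 3′ for the 6 of these whose region was centred within 50 bp of it, with the bases inside the region in capitals.
Ttc22 (chr4:106622199-106622448, plus strand): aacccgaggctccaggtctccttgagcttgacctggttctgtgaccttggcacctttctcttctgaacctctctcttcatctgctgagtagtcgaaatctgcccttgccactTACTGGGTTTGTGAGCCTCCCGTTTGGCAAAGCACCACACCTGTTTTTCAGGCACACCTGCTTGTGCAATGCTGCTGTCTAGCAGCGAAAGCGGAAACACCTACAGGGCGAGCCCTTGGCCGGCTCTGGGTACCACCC
Slc7a11 (chr3:50443614-50443863, minus strand): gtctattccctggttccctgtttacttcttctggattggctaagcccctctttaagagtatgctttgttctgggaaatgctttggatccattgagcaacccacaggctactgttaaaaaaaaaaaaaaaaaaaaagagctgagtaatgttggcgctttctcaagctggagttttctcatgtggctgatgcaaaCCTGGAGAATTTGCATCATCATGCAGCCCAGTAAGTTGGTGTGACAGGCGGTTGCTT
Scel (chr14:103513091-103513340, plus strand): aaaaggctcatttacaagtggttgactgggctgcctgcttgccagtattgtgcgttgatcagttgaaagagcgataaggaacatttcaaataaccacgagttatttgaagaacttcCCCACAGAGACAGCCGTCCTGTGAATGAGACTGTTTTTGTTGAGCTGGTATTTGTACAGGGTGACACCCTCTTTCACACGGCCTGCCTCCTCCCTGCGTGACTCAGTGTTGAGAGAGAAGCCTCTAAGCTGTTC
Tinag (chr9:77045782-77046031, minus strand): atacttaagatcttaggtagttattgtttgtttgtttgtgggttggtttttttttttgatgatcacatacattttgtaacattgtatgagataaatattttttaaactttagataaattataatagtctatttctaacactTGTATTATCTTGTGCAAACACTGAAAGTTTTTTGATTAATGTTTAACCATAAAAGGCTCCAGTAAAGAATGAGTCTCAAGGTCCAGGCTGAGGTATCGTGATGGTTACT
Arfgef3 (chr10:18743759-18744008, minus strand): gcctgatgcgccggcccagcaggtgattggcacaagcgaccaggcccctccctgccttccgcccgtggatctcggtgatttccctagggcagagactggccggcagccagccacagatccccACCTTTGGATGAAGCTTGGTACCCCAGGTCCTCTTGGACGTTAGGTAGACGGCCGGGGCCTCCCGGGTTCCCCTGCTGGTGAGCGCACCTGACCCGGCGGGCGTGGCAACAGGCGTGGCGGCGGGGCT
Kcne3 (chr7:100178433-100178682, plus strand): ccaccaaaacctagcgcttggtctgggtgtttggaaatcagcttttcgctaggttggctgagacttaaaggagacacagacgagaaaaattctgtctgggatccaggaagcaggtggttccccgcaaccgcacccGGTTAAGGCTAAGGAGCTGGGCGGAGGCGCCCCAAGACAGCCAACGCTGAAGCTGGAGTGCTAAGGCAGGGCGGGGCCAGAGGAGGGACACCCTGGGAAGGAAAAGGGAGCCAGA
A match to a motif in a window is a description and not a binding site. The nuclear receptor motif AGGTCA, on either strand, occurred in 6 of the 56 windows under regions with peaks only in dKO (10.7%), in 10 of 45 (22.2%) under regions with peaks only in control, and in 16.3% of all 32851 windows. Among the 8 genes above it was found in 1, Ttc22, as TGACCT outside the capitals. The GC box GGGCGG occurred in 40 of 56 (71.4%), against 67.6% of the windows under shared regions and 35.7% of all, and the CCAAT box in 34 of 56 (60.7%), against 37.8% and 37.4%. Under regions with peaks only in control these were 42.2% and 24 of 45 (53.3%). The direct repeats DR1 and DR4, pairs of AGGTCA that are 1 or 4 bases apart and so contain that motif, were found in none of the 56, against 0.0396% and 0.0152% of all windows. Both strands were searched for every motif.

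Most of the 1723 regions were weak. Their median normalized tag counts were 8.51, 6.17 and 6.20 in dKO 1, dKO 2 and dKO 3, against 15.6, 13.5 and 17.4 at the 51749 regions with a peak in all 6 libraries. The mean over the 3 dKO libraries was below 10 in 1267 regions (73.5%) and at least 20 in 118 (6.85%), with a median coefficient of variation of 20.9%. The dKO 1 library was the highest of the 3 in 1075 regions, dKO 3 in 556 and dKO 2 in 92. At the weakest edge, a region in Tmem106b had 4.78, 3.29 and 4.01 in dKO. Just outside the rule, a region at Dnal1 had 6.18, 4.18 and 4.68 in dKO and a single control peak of 2.87 in control 2. For comparison, 1468 regions (1.34%) had peaks in all 3 control libraries and in no dKO library.

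The nearest control peak lay at a median of 3917 bp. It was within 1 kb of 442 regions (25.7%) and within 10 kb of 1359 (78.9%). These shares were not computed for other positions, so they do not set the regions apart. The nearest other merged region, of any library, lay at a median of 2474 bp, against 1870 bp for all merged regions. Regions inside a protein-coding gene made up 60.3%, against 59.2% of all merged regions, and 11.7% lay over 50 kb from any such gene, against 11.2%. Start sites were less represented than among shared regions. Of the regions on chromosomes with start-site annotation, 8.15% lay within 1 kb of one, against 5.87% of regions with peaks only in control and 21.7% of shared regions.

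Shares were also taken in libraries that had no part in choosing the regions. When regions were chosen by a peak in 2 dKO libraries and none in 2 control libraries, the held-out dKO 1 had a peak in 82.9 to 86.4% of them and the held-out dKO 2 in 85.4 to 90.6%. The held-out dKO 3 had one in only 27.9 to 33.4%. Held-out control 1 had a peak in 52.2 to 53%, control 2 in 13.3 to 31.1% and control 3 in 4.95 to 12.9%. The dKO share was the larger in 8 of 9 pairs, and was the smaller for dKO 3 with control 1 (27.9% in dKO 3 against 52.6% in control 1). The 9 pairs share libraries, so no p-value is given. In each group the shares were higher in lists with 108 bp peaks (dKO 1, dKO 2 and control 1). Peaks were 166 or 172 bp wide in dKO 3, control 2 and control 3. How far peak width, which differed between the groups, set these shares was not tested. Without dKO 3 the rule, which then has fewer conditions to meet, kept 6514 regions, and without control 1 it kept 3791.

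**Figure D1:**
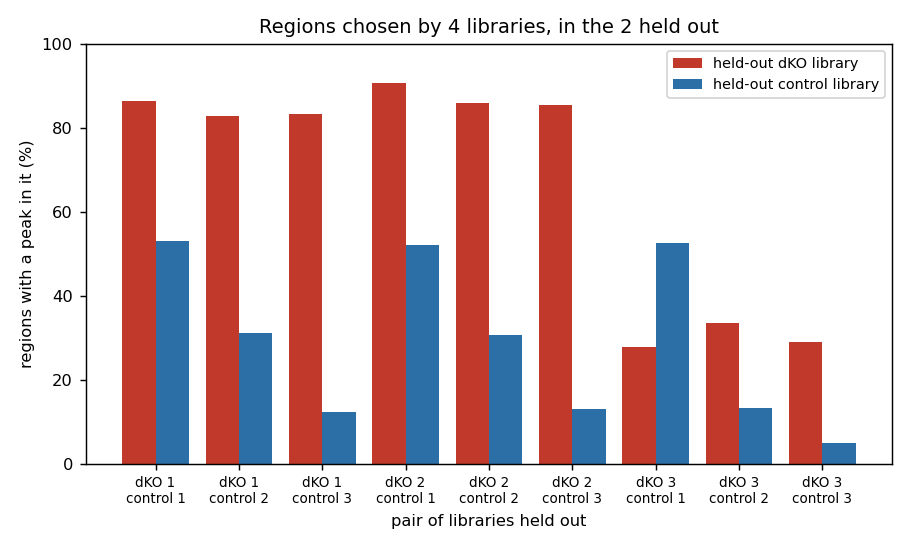
Percentage of regions with a peak in the held-out dKO library (red, left bar) and the held-out control library (blue, right bar) for each of the 9 pairs of libraries held out. Red bars stand above blue ones in 8 of 9 pairs, and the bars of dKO 3 reach only 27.9 to 33.4%.

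The strongest regions included ones at genes of fatty acid oxidation, glutathione conjugation and lipid storage. The highest lay 198 bp past the 3′ end of Gstm3 (chr3:107963405-107963592), a glutathione S-transferase gene, with 135.9, 99.7 and 89.1 normalized tags in dKO 1, 2 and 3 (mean 108.2 ± 24.5, SD, n = 3). A region 500 bp past the 3′ end of its neighbour Gstm1 (chr3:108011639-108011861) had 122.9, 94.1 and 95.3. Both were highest in dKO 1, and genes of this family are close in sequence, so reads may be split between copies. Inside Abcc2, which encodes a canalicular export pump for conjugates, a region (chr19:43793075-43793247) had 131.8, 80.6 and 80.4 in dKO. Control 1 and control 3 had peaks of 30.8 and 35.7 in the same gene, 249 bp away, so the locus was called open in both groups at nearby positions.

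G0s2, whose protein inhibits the triglyceride lipase ATGL, had 2 such regions 1044 and 648 bp past its 3′ end. The first (chr1:193271009-193271223) had 71.9, 88.0 and 93.1 and the second (chr1:193271411-193271614) 63.4, 70.6 and 82.0, both highest in dKO 3. The body of G0s2 was called in dKO 1 and dKO 3 (49.8 and 65.0) and in all 3 control libraries (48.9, 50.8 and 31.5). Both groups thus had calls at the gene itself, and the calls past its end were made in dKO libraries.

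Pdk4, the pyruvate dehydrogenase kinase that spares glucose carbon in fasting and a target of PPARα and the glucocorticoid receptor, had 2 regions. The one 759 bp past its 3′ end (chr6:5482504-5482681) had 77.5, 83.1 and 71.6 in dKO. The other, 21414 bp upstream (chr6:5517606-5517778), was weaker, at 14.6, 14.0 and 9.60, but stood at least 12.04-fold over its surroundings in every dKO library. Only 474 of the 1723 regions had a lowest fold of 8 or more.

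Among the other 12 strongest, regions near Cyp4a14 and Cyp4a10, which encode PPARα-driven fatty acid ω-hydroxylases, had 61.2, 77.0 and 75.2 and 44.4, 64.9 and 55.1 in dKO. A second region near Cyp4a10 had 32.8, 45.9 and 47.9. All 3 lay 680 to 1272 bp outside the gene body, dKO 1 was the lowest in each, and the table used gave no strand for these genes. Thop1, an oligopeptidase gene, had 54.4, 52.1 and 73.9, with a control peak 79 bp away. Zfp213, Prdm2 and Eef1a1 completed the 12 with means of 46.1, 42.8 and 42.5. Ehhadh, the peroxisomal bifunctional enzyme of β-oxidation, was level with Eef1a1, with 53.5, 37.8 and 36.1 at a region 975 bp past its 3′ end (chr16:21760224-21760396).

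**Figure D2:**
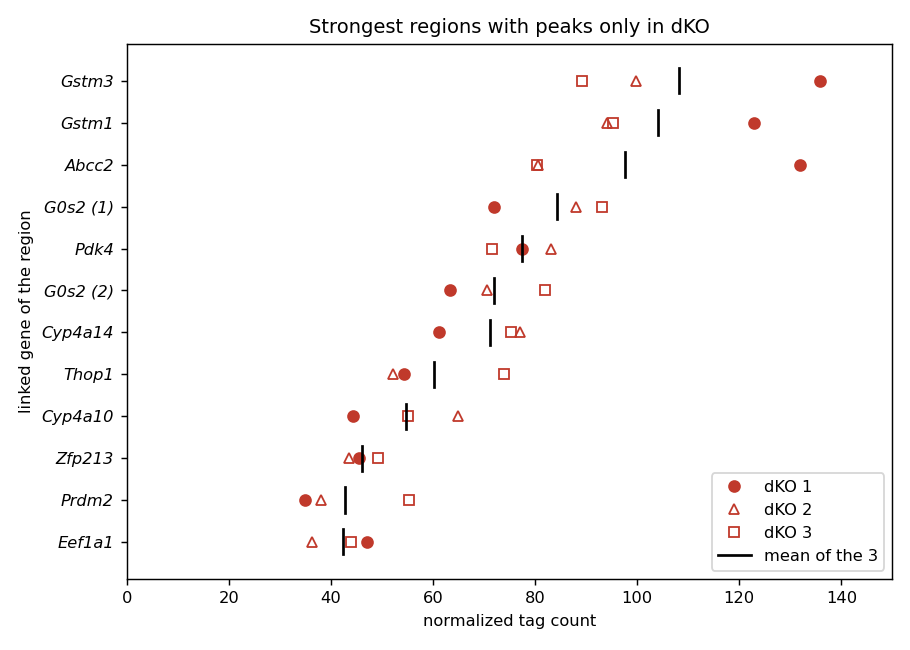
Normalized tag counts (x axis) in dKO 1, dKO 2 and dKO 3 for the 12 strongest regions with peaks only in dKO, named by linked gene, with the mean of the 3 as a black bar. Values fall to a mean of 42.5 at the 12th, and dKO 1 is well above the other libraries at Gstm3, Gstm1 and Abcc2.

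Strong regions that lay close outside a gene were mostly on its 3′ side only once those near a control peak were left out. Of the 50 with a mean of at least 20 and no control peak within 1 kb, 13 lay within 2 kb outside a gene of known strand, and 11 of these (84.6%) were on its 3′ side. Over all 118 regions with a mean of at least 20 it was 46.7% (14 of 30), and with a control peak within 1 kb 17.6% (3 of 17). The same share, with no such filter, was 10.2% (278 of 2720) for shared regions with a mean of at least 20, 45.0% (36 of 80) for all regions with peaks only in dKO, and 42.3% (30 of 71) for regions with peaks only in control. For regions with peaks only in control and a mean of at least 20 it was 15.8% (3 of 19). Absence of control peaks, which the rule also used, and level in dKO picked these 13 regions. Of the 36 strong regions within 1 kb of a start site, 35 had a control peak within 1 kb. The filter thus took out nearly all regions at start sites, and 84.6% cannot be set against the unfiltered shares. They are not independent, with 2 past G0s2 and others past the neighbours Gstm3 and Gstm1, so no interval is given. The share past a 3′ end was not a planned measure. The share was 82.6% without dKO 3 and 81.8% without control 1. Besides the genes above, these included Fgg, which encodes the fibrinogen γ chain, Acot1, an acyl-CoA thioesterase, Midn and Uox, the urate oxidase gene. The region past Fgg (1384 bp) had 32.1, 29.9 and 33.6 and the one past Acot1 (961 bp) 33.3, 26.0 and 25.9.

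These strong regions also stood little above their surroundings. In 39 of the 50 (78.0%) the lowest of the 3 folds over local background was under 5, against 6.22% of shared regions with a mean of at least 20. It was 4.17 at Gstm3, 4.54 at Pdk4 and 4.2 at Ehhadh, close to the lists' floor of 4. Regions with peaks only in control and a mean of at least 20 were alike in this, with 118 of 159 (74.2%) under 5. How far the local floor, rather than openness itself, set which library had a call there was not tested.

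**Figure D3:**
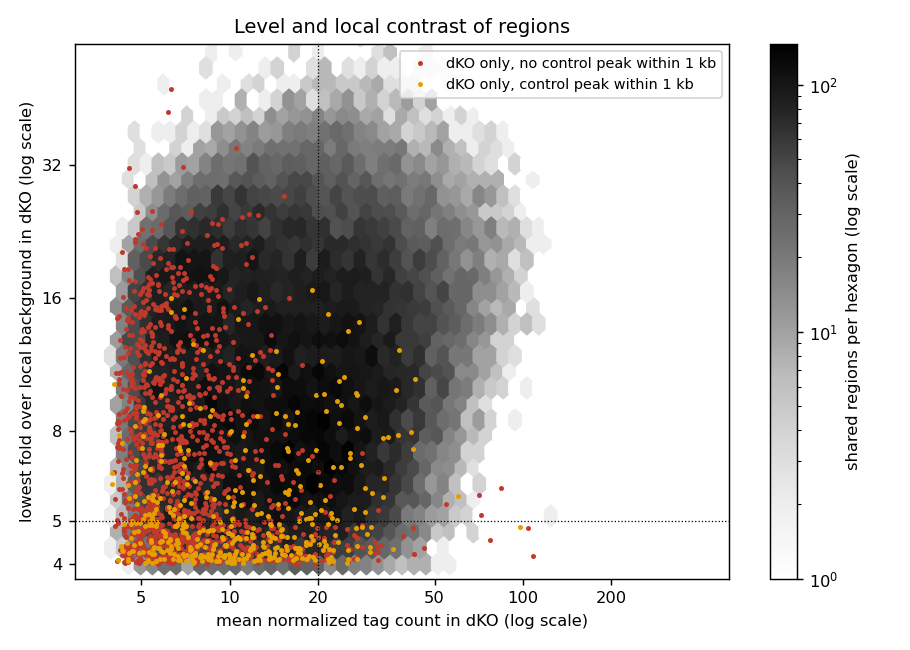
Mean normalized tag count in dKO (x axis, log scale) against the lowest fold over local background among the dKO libraries (y axis, log scale) for regions with peaks only in dKO without (red) and with (orange) a control peak within 1 kb, over shared regions (grey hexagons). Red points above a mean of 20 (vertical dotted line) lie mostly below a local fold of 5 (horizontal dotted line), 39 of 50.

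At several of these genes a strong peak outside the gene in dKO stood beside weaker peaks that were called only in control libraries. Pdk4 had 4 such control regions. The one 145 bp upstream of the gene (chr6:5496302-5496544) had 50.9, 39.4 and 37.8 in control. An adjoining region just inside the gene had 67.1, 53.2 and 60.1 in dKO against 18.3 in control 1 alone. On the other side, 345 bp upstream, dKO 2 had a peak of 38.0. Both groups thus had calls around the start of Pdk4, at neighbouring positions. Inside Ehhadh 2 control regions had means of 10.6 ± 0.96 and 17.5 ± 1.36, and inside Acot1 one had 14.3 ± 1.08 (SD, n = 3 each). Near Cyp4a10 and Gstm3 there were 2 each. Of the 110 genes with a region of mean 20 or more only in dKO, 24 (21.8%) also had a region only in control, against 6.01% of all 16634 genes with any region. Genes with many regions have more chances for either kind, so the shares are descriptions.

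**Figure D4:**
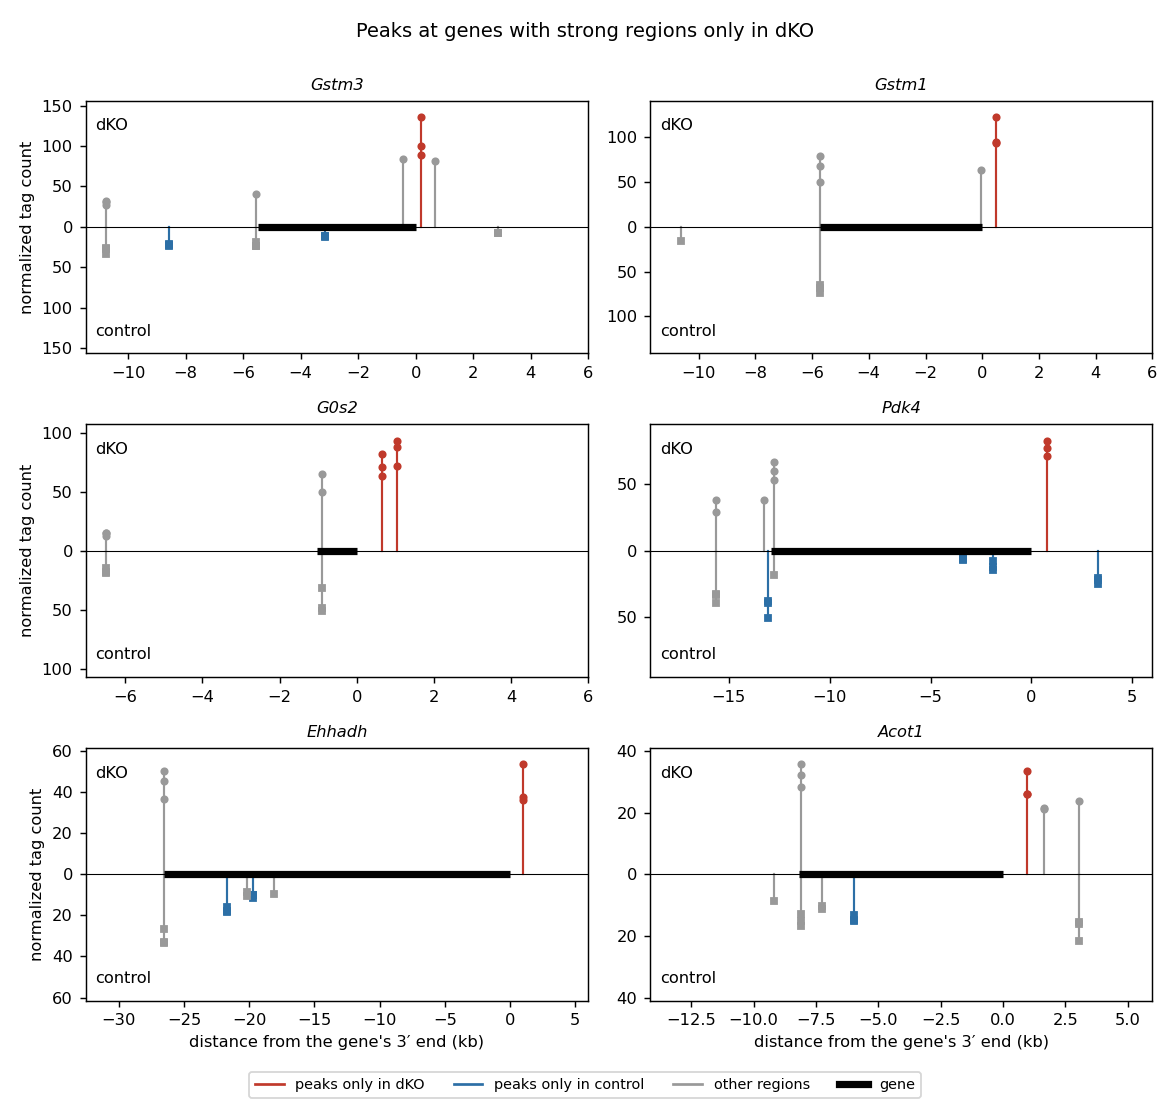
Normalized tag counts of each library's peaks at 6 genes (dKO upwards, circles; control downwards, squares) against distance from the gene's 3′ end in kb, with the gene as a black bar ending at 0. Red stems, present only in dKO, stand just right of 0 in all 6 panels, and blue stems, present only in control, lie within or upstream of Gstm3, Pdk4, Ehhadh and Acot1, and also downstream of Pdk4.

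Of the 21 gene lists, that of PPARα targets and fatty acid oxidation held the largest share. Of 192 regions linked to its 27 genes, 10 (5.21%) had peaks only in dKO, at 7 genes, and 11 (5.73%) had peaks only in control, beside the backgrounds of 1.57% and 1.34%. Pdk4, Ehhadh, Acot1 and Cyp4a10 had both kinds. Beside the region near Cyp4a14 described above, the remaining ones, named after their values were seen, were at Cpt1b, the muscle-type carnitine palmitoyltransferase (37.9, 29.2 and 29.3 at 102 bp from the gene), and 2 weak ones near Vnn1, the pantetheinase gene (means 8.63 and 7.40).

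Shared regions of the same genes could be tested. Each one named had the lowest adjusted p at its gene, and the second at Pdk4 the lowest among those lower in dKO. Cpt1b and Acot1 had 1 shared region each. Of 3 at Pdk4, limma called 1 higher and 1 lower, and of 3 at Ehhadh 1 higher. Over all shared regions limma called 4240 (8.19%) higher and 5995 (11.6%) lower in dKO at an adjusted p under 0.05. Without dKO 1 or dKO 2 the higher calls numbered 1633 and 1257 and the lower calls 2061 and 1402, and 2562 were higher without centring of the libraries. At Cpt1b a shared region 923 bp from the gene had 22.1, 18.2 and 14.9 in dKO and 7.19, 8.52 and 7.34 in control, without overlap (log2 fold change 1.21, SE 0.19, limma adjusted p = 0.00197). The shared region of Acot1 had 35.6, 28.4 and 32.1 in dKO and 16.7, 15.1 and 13.0 in control (log2 fold change 1.11, adjusted p = 0.000752, limma). A region 13650 bp upstream of Pdk4 averaged 33.9 ± 2.42 in dKO and 19.5 ± 2.12 in control (log2 fold change 0.83, adjusted p = 0.00163, limma). Another shared region of Pdk4, 12309 bp past its 3′ end, was lower, with 9.09, 8.47 and 14.8 in dKO and 18.4, 24.5 and 20.2 in control (log2 fold change -0.87, adjusted p = 0.00496, limma). In each of these regions the groups did not overlap. One inside Ehhadh had 45.6, 36.7 and 50.5 in dKO and 33.4, 33.0 and 26.7 in control (log2 fold change 0.56, adjusted p = 0.00776, limma) and missed the threshold without centring of the libraries (adjusted p = 0.0616). Over the whole list 12 of 65 shared regions were higher and 3 lower, with a median log2 fold change of 0.08, against -0.02 over all shared regions.

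The xenobiotic list, which includes Gstm1 and Gstm3, had 7 of 229 regions (3.06%) only in dKO and 10 (4.37%) only in control. Cyp2b9, a cytochrome P450 gene, had a region 12559 bp past its 3′ end with 37.4, 38.7 and 17.7 in dKO and no control peak within 21746 bp, lowest in dKO 3. Its family has near-identical copies. Weak ones near Cyp3a11 and Cyp3a25 averaged 5.28 and 4.92. Over the 12 shared regions of the 6 list genes with a region only in dKO, the median log2 fold change was 0.05. Over the whole list 9 of 77 shared regions were higher and 10 lower by limma.

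In the lipid droplet list, 5 of 177 regions (2.82%) had peaks only in dKO. Beside G0s2 these were 2 at Abhd5, which encodes the ATGL coactivator CGI-58 (means 7.47 and 6.88), and 1 near Lipc, the hepatic lipase gene (6.79). At Abhd5 3 of 8 shared regions were higher in dKO by limma and none lower. The most significant, 13757 bp from the gene, had 23.8, 17.2 and 22.5 in dKO and 11.1, 13.0 and 11.6 in control (log2 fold change 0.83, adjusted p = 0.00288, limma). Over the whole list 24 of 87 shared regions were higher and 8 lower by limma, beside 8.19% and 11.6% of all shared regions.

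The sterol list had 5 of 170 (2.94%). Among these, 2 near Insig2, which retains SREBP in the endoplasmic reticulum, averaged 15.4 and 10.7. Of its 74 shared regions 2 were higher and 18 lower by limma. The gluconeogenesis list had 9 of 324 (2.78%), of which 2 were those of Pdk4, 2 lay at Pcx, the pyruvate carboxylase gene (14.0 and 7.13), and 1 lay inside Ppargc1a, the coactivator PGC-1α (7.93, 8.62 and 9.72). Around that weak Ppargc1a region the gene's shared regions went the other way. Of 15, 9 were lower in dKO, and the most significant averaged 27.3 ± 5.05 in dKO and 43.9 ± 1.04 in control (log2 fold change -0.62, adjusted p = 0.00343, limma). Over the whole gluconeogenesis list 18 of 141 were higher and 38 lower.

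The bile acid list had 4 of 160 (2.50%), namely the 2 of Abcc2, 1 in Nr1h4, the bile acid receptor FXR (31.2, 21.7 and 22.3, no control peak within 4328 bp), and 1 in Abcb11, the bile salt export pump (mean 7.49). The corepressor list had 5 of 229 (2.18%). In Ncor1 itself a weak region had 5.30, 5.80 and 6.80, and 2 lay in Tbl1x, a subunit of the NCOR complex (10.3 and 5.50). One was linked to Ncoa2, a coactivator gene (9.14), and one to Nrip1, which encodes the corepressor RIP140 (6.22). Ncor1 peaks cannot show the deletion, since the floxed exons were not located here. The nuclear receptor list was at 7 of 627 (1.12%), below the background, and included Nr1i2, the xenobiotic receptor PXR, with 23.9, 21.7 and 30.5 at 931 bp upstream.

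The glucocorticoid receptor targets stood at 3 of 306 (0.98%) only in dKO against 8 (2.61%) only in control, and the 3 were those of Pdk4 and 1 past Per1, a clock and glucocorticoid-induced gene (24.5, 19.3 and 21.0, control peak at 254 bp). Bhlhe40, a clock repressor gene, had a distant region with 32.8, 21.7 and 13.9. The amino acid catabolism list had 3 of 176 (1.70%), among them one inside Hpd, an enzyme of tyrosine breakdown (20.1, 18.3 and 28.1), and one inside Cth, which makes cysteine (mean 11.7). Of the shared regions of that list 3 of 68 were higher and 31 lower by limma. De novo lipogenesis had 4 of 289 (1.38%), at Pnpla3, a lipid droplet protein gene (17.5), Elovl6, a fatty acid elongase gene (16.7), Acsl5 (10.7) and Acaca (4.18). Hepatocyte transcription factors had 3 of 379 (0.79%), at Gata4 (10.3), Nr5a2 (8.22) and Prox1 (7.63). Thyroid hormone receptor targets had 1 of 247 (0.40%), and fetal liver and ductal genes none of 120. The LXR targets had 1 of 111 (0.90%), past Abca1, the cholesterol efflux pump (11.9, 13.5 and 16.8), and 3 (2.70%) only in control. Over all merged regions the shares only in dKO and only in control were 1.57% and 1.34%. The acute phase list had 4 of 207 (1.93%), among them Fgg and a region 154 bp upstream of Stat3 (22.7, 23.4 and 34.9, with a control peak 95 bp away). Of the 88 shared regions of that list, 3 were higher and 24 lower by limma. One inside Socs2, a brake on growth hormone signalling, had 23.6, 25.4 and 41.1 with a control peak 25 bp away, and the growth hormone list had 2 of 332 (0.60%), the other near Foxo1 (4.49, 9.57 and 6.93). The cell cycle list had 2 of 135 (1.48%), at Cdk6 (11.2, 10.3 and 11.5) and Top2a (3.98), and the p53 and stress list 2 of 113 (1.77%), at the chaperone gene Hspa5 (16.8, 16.3 and 24.2) and at Mdm2 (5.62). Only in control, the acute phase list had 4 regions (1.93%), the growth hormone list 2 (0.60%), the p53 and stress list 1 (0.885%) and the cell cycle list none. Values in Stat3, Socs2 and Hspa5 were highest in dKO 3.

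**Figure D5:**
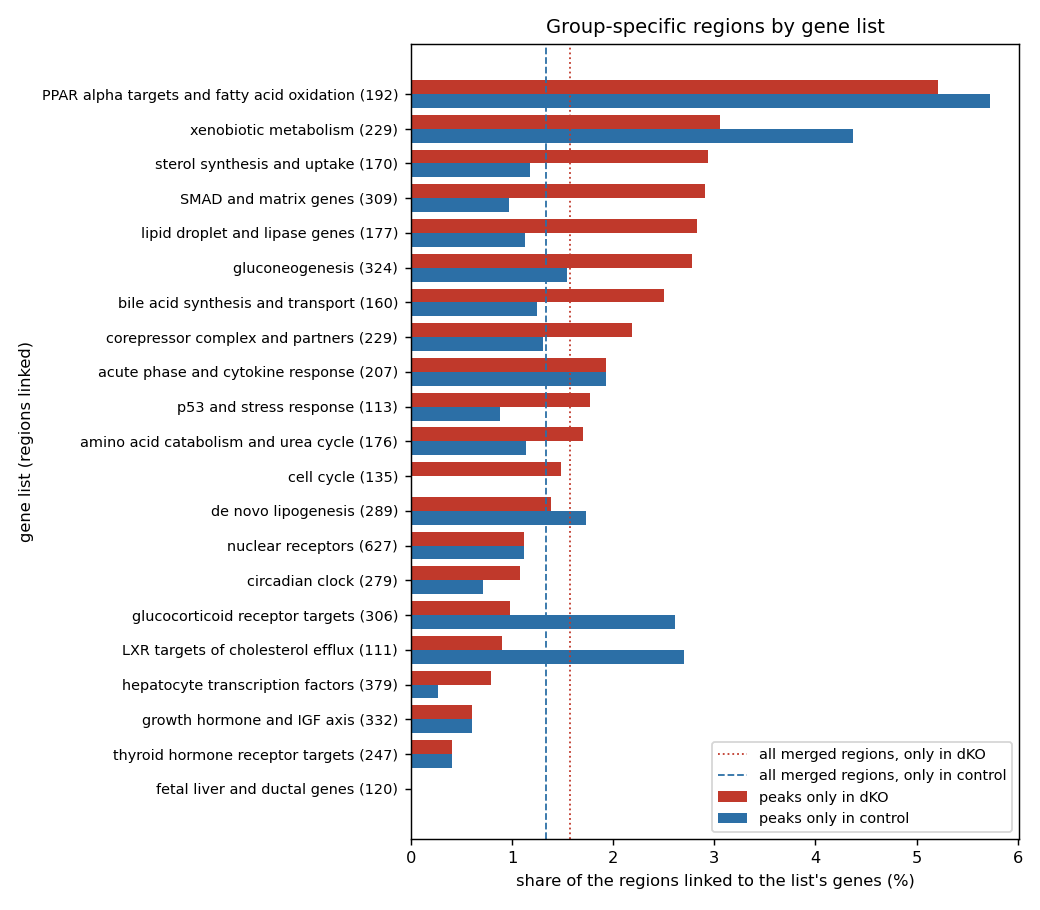
Share of the regions linked to each gene list that had peaks only in dKO (red, upper bar) or only in control (blue, lower bar), with the number of linked regions in brackets and the shares over all merged regions as dotted and dashed lines. The fatty acid oxidation list is highest for both kinds, at 5.21% and 5.73%, and glucocorticoid receptor targets are at 0.98% and 2.61%.

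Of the 1723 regions 4 were linked to markers of other liver cells. The 8 endothelial markers had 3 of 77 regions (3.90%), at Lyve1 (13.3), Tek (5.21) and Pecam1 (4.81), and the neutrophil markers 1 of 12 (8.33%), at Csf3r (5.48). The background was 1.57%, but these shares rest on 3 regions and 1 region. The macrophage, stellate, cholangiocyte and lymphocyte markers had none. Peaks only in control were found at 1 endothelial marker region (1.30%) and 1 stellate marker region (4.55%), beside a background of 1.34%. Summed normalized tag counts over the endothelial marker regions ranged from 461 to 659 in dKO and from 524 to 668 in control, and over macrophage marker regions from 24.3 to 52.3 in dKO and from 36.1 to 41.4 in control. The sums ranged from 118 to 172 in dKO and from 138 to 170 in control for stellate markers, from 293 to 407 in dKO and from 310 to 354 in control for cholangiocyte markers, from 46.4 to 65.0 in dKO and from 54.8 to 64.9 in control for lymphocyte markers, and from 81.1 to 97.0 in dKO and from 83.4 to 110.3 in control for neutrophil markers. The ranges of the groups overlapped for all 6 lists.

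The 8 genes described next were those with the most regions with peaks only in dKO, so their high counts follow from that choice. Most of these regions were weak. Over all merged regions, 1.57% had peaks only in dKO and 1.34% only in control. Prkca, a protein kinase C gene, had 7 of its 44 regions only in dKO, with means from 6.97 to 10.3, and none only in control. Of its shared regions 8 of 16 were higher in dKO by limma, beside 8.19% of all shared regions, the most significant with 12.4, 8.36 and 9.42 in dKO and 5.06, 4.93 and 3.92 in control (log2 fold change 1.02, adjusted p = 0.00248). Cblb, a ubiquitin ligase gene, had 6 of 34, Msi2, an RNA-binding protein gene, 5 of 38, and Wwtr1, which encodes the Hippo pathway coactivator TAZ, 5 of 23. Nek7 had 5 of 28 and Hdac4, a histone deacetylase gene, 4 of 33. In Prkca, Msi2 and Wwtr1 every one of these regions was highest in dKO 1.

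At Msi2, 10 of 19 shared regions were higher in dKO, beside that same 8.19%. The most significant had 41.8, 35.0 and 30.6 in dKO and 5.16, 7.08 and 5.44 in control (log2 fold change 2.48, SE 0.18, limma adjusted p = 9.66e-05). Ldlrad4, a negative regulator of TGF-β signalling, had 5 of 52 regions only in dKO and 8 of 22 shared regions higher, which put the SMAD and matrix list at 9 of 309 (2.91%). In Wwtr1 the most significant of 10 shared regions averaged 21.8 ± 2.36 in dKO and 14.2 ± 1.29 in control (adjusted p = 0.0148, limma), and it missed the threshold without dKO 1 or without dKO 2. These 7 genes spanned 120.3 to 410.5 kb. Gpx5, a glutathione peroxidase gene of 6.30 kb, had 4 of 11 linked regions 6655 to 45406 bp from it, with means from 6.63 to 17.6.

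Over all genes, shared regions within 10 kb of a region with peaks only in dKO were more often called higher. Of 1718 such neighbours 264 (15.4%) were higher and 193 (11.2%) lower, beside 8.19% and 11.6% of all shared regions. Near a region with no control peak within 1 kb the shares were 17.1% and 9.75% of 1077, and near regions with peaks only in control 8.62% and 17.9% of 1137. Near the strong regions, those with a mean of at least 20, 19 of 156 (12.2%) were higher and 24 (15.4%) lower. Without dKO 3 the shares higher were 18.1% near the regions and 10% over all shared regions, and without dKO 2 they were 6% and 2.43%. Among shared regions within 1 kb of a region with peaks only in dKO, 34 of 268 (12.7%) were higher and 36 (13.4%) lower. The neighbours come from the same libraries as the rule, so these are descriptions.

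A minority of regions were sharp. In 474 of 1723 every dKO peak stood at least 8-fold over its surroundings, and of the 12 strongest this held for Prdm2 alone. Of the sharp regions 87.8% had no control peak within 1 kb, 43.0% were inside a gene and 23.4% were over 50 kb from any, against 74.3%, 60.3% and 11.7% of all 1723. Regions with peaks only in control, at any local fold, were alike in place, with 44.7% inside a gene and 23.4% over 50 kb from any. The sharp regions clear of control peaks were modest in level and led, in an order looked up after their values were seen, by one in Nostrin, an endothelial nitric oxide synthase trafficking gene (29.0, 11.3 and 12.8), and one 32663 bp from 1110002E22Rik (22.9, 15.2 and 9.78). Both were highest in dKO 1. The 5 strong regions named for their distance from any other merged region were those of Ehhadh and Cyp2b9 (18891 and 21746 bp), one in Picalm, a clathrin assembly gene (31.0, 18.7 and 10.3, another region at 10576 bp), and ones near Dusp6, an ERK phosphatase gene (32.8, 22.6 and 26.1), and Mgst1, a microsomal glutathione transferase gene (27.9, 24.3 and 28.8).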

How the data were processed

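ATAC-seq peak lists of 3 dKO and 3 control libraries were analysed, 1 deposited list per library, so replicates were not pooled. Per the submitters' processing notes, Trim Galore 0.6.4, Picard, SAMtools 1.10 and HOMER 4.11 were used on build mm10. For the aligner, any shift of reads and the peak calling options, the entry is: not given in the sources used here. Per the file headers, the authors gave every deposited peak a normalized tag count, which is a depth-scaled signal. The deposited columns also hold a score, the fold over local background and the clonal fold (each a ratio), p-values, and the focus ratio as a fraction. The signal was used as deposited, the score and local fold as filters or descriptions. The depth is unknown. Values under 5 in each list lay on a regular step, and if 1 step is 1 tag the lowest peaks held about 56 to 59 tags. Deposited peak widths were 108 bp in dKO 1, dKO 2 and control 1, 166 bp in control 2 and 172 bp in dKO 3 and control 3. The width class was no term of the fit, and was tried as one and by analysing each class alone.

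The 17 to 24 chromosome Y peaks of a library were not used. Regions took the protein-coding gene (RefSeq, GRCm38.p6) nearest to their midpoint if it lay within 50 kb, and distances to genes are from the midpoint. Strand and start sites came from the promoter table, which holds no chromosome 18 entry. Shared regions were compared as log2(value + 1), centred on each library's median, with limma 3.58.1 (trend, Benjamini-Hochberg, 2-sided) in R 4.3.3, which was tested on simulated data. Fold changes on this scale understate weak regions. No genome was given, so motifs and sequences were read in promoter windows alone, which departs from the plan.

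The regions, the 21 gene lists and the 7 marker lists were chosen with earlier results of these data known. Text names the 12 strongest regions, the 8 genes with most of them, up to 3 per list, a fixed set of 12 genes and the 5 most isolated of mean 20 or more. Some regions that this rule names are not reported here.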

Additional observations from a re-analysis of the deposited data

How the results depend on the processing

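The number of regions with peaks only in dKO was 1723 and ranged from 1985 to 6514 with 1 library left out, 6514 without dKO 3 and 3791 without control 1. Leaving out a library drops a condition of the rule, so a rise in number was built in. It was 820 with a peak score of at least 50 required in dKO lists, and 474 with a local fold of at least 8 there, an alternative chosen after seeing the data. Within the narrow peak width class alone the rule gave 9773 regions and within the widest class 11577, with fewer libraries in each. The other merging, overlap and score rules moved it by less than 1.5 times. The median of the dKO means, 6.90, was 9.14 with a score of at least 50 in all lists and 10.5 with it in dKO lists, and ranged from 5.82 to 8.96 with 1 library left out. The 12 strongest regions were kept under the alternatives other than merging within 100 bp (11), no control peak within 1 kb (9) and a local fold of at least 8 (1). Where libraries were left out, their being kept was likewise built in and is no measure of stability. Among strong flanking regions with no control peak within 1 kb, the share past a 3′ end ranged from 70.0% to 92.3%. It had no value at a local fold of at least 8. The held-out dKO share was also larger in 8 of 9 pairs with a score of at least 50.

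Calls at shared regions ranged from 1257 to 5174 higher and from 1402 to 8123 lower with 1 library left out, and 2562 were higher without centring. Among neighbours within 10 kb they ranged from 103 to 311 higher and from 53 to 254 lower. Within 2 kb 72 were higher and 64 lower, and within 50 kb 986 and 734. The share higher near the regions exceeded that of all shared regions in every setting of the fit. The share lower also exceeded it without dKO 1 (4.6% against 3.98%) or dKO 2 (3.08% against 2.71%). The same held without control 1 (8.21% against 8.03%) or control 3 (9.37% against 8.62%). In the other settings the share lower was below that of all shared regions. With the peak width class as a term 4279 were higher and 5930 lower. With the replicate number as a block 5417 were higher and 7384 lower. Deviations of same-numbered libraries correlated at 0.15, -0.03 and 0.23, and those of differently numbered ones at -0.23 to 0.16. With 3 libraries per group these values cannot decide whether equal numbers pair the libraries, and the sources used here do not say. The motif alternative of 200 bp was not run, since it needs a genome.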
